A study of Mus musculus with 4 samples.

Results

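The collagen genes of the mouse gastric corpus, whose glands secrete acid, were followed at 48 hr after HDT. A gene was counted as a collagen gene when its symbol was Col, a number, the letter a and a number with nothing after it, and 44 of the 52125 rows of the deposited table met this. By collagen type, 11 were fibrillar, 6 were chains of type IV, the collagen of basement membranes, and 27 belonged to other classes. The HDT group was 2 wild type C57BL/6 mice of 6 to 8 weeks, each given 1 intraperitoneal dose of 5 mg HDT per 20 g of body weight to damage the stomach. The Vehicle group was 2 mice of the same strain, genotype and age, called vehicle in the titles and untreated in the protocol text, so whether they were injected is not settled. HDT is the abbreviation that work on gastric injury uses for high-dose tamoxifen, and the labels do not expand it. Each library was made from RNA of the corpus of 1 mouse, without cell sorting in the protocol, so epithelium, stroma, vessels and muscle were measured together, and the sex of the mice is not given in the sources used here.

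Collagens are secreted proteins built from chains that wind around each other in a rope-like helix, and each chain has its own gene. Fibrillar collagens assemble end to end and side by side into the banded fibres of connective tissue, which fibroblasts mainly produce. Type IV chains instead join into a flexible sheet, the scaffold of the basement membrane on which epithelium, endothelium and smooth muscle rest. The remaining classes decorate fibrils, form beaded filaments or short-chain networks, anchor basement membranes to the tissue below, or span the plasma membrane. In the stomach the lamina propria around the glands holds the fibrillar collagens, and a basement membrane surrounds every gland.

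Depth was 42175023 and 42674985 recovered reads in the HDT libraries and 41536686 and 42104568 in the Vehicle libraries. Mice of 1 group differed beyond counting error: chi-square over its degrees of freedom came to 30.2 between the HDT mice and to 16.2 between the Vehicle mice. Levels are given as CPM, reads per 1000000 reads after TMM scaling, or as CPM per kb of annotated exon where different genes are compared. A difference is the log2 fold change of HDT over Vehicle with its standard error (SE), called at a limma adjusted p under 0.05. The labels say that each library was 1 mouse. The p-values rest on the spread between 2 mice per group, moderated by limma with the spread of other genes. The median prior degrees of freedom of that moderation were 5.87.

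Of the 44 collagen genes, 39 had enough reads for the test, and 23 of these rose after HDT, 4 fell and 12 had no call. Among all 18285 genes tested, 18.4% were called higher and 19.3% lower, 37.7% in either direction, and the median log2 fold change was 0.58 for the 39 collagens and -0.001 for all genes. At least 2-fold rises were called for 11 collagens, where the share over all genes was 4.07%. By class, 7 of 10 tested fibrillar genes rose and 0 fell, 4 of 6 type IV genes rose and 2 fell, and 12 of 23 tested genes of other classes rose and 2 fell. The class medians were 0.71 for fibrillar, 0.54 for type IV and 0.62 for other collagens. Both HDT libraries lay above both Vehicle libraries for 24 of the 39 genes and below them for 9, against 35.3% and 35.5% of all genes tested. Of the 39 genes, 2 reached the minimum level through the HDT libraries alone, Col17a1 and Col22a1, so a rise of these 2 would have been favoured. With the values as deposited, without TMM factors, the median of all 18285 genes moved to 0.526, and 11483 were called higher and 998 lower. There 26 of the 39 collagens were called higher and 4 lower, so their share called higher was near that of all genes. All 23 rises and 4 falls kept their direction and their call. Since the median of all genes moved up, the rises could hardly lose their call there, and only the falls could. In tissue libraries like these, a different number of collagen-making cells and a different amount of collagen RNA per cell cannot be told apart.

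**Figure D1:**
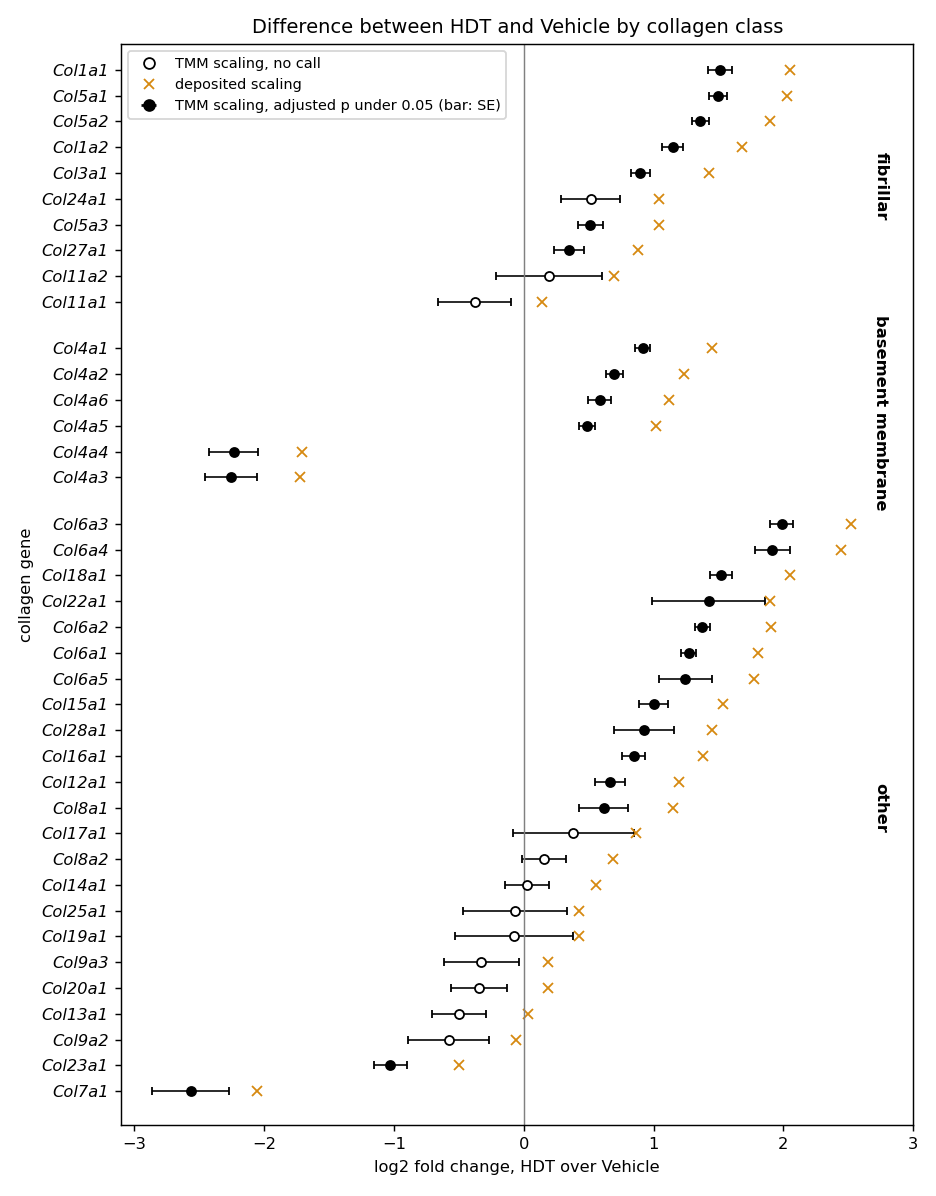
Log2 fold change of HDT over Vehicle for the 39 tested collagen genes, grouped as fibrillar, basement membrane (type IV) and other, with bars for the SE. Filled circles are called (adjusted p under 0.05) and open circles are not, and crosses give the value at the deposited scaling. Col6a3 stands highest at 1.99, and Col7a1, Col4a3 and Col4a4 stand apart on the left at -2.56, -2.25 and -2.23.

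The abundant fibrillar genes all rose. Col1a1, which encodes the main chain of type I collagen, was at 515 and 624 CPM in the HDT libraries and at 197 and 200 CPM in the Vehicle libraries. Its log2 fold change was 1.51 (SE 0.092, adjusted p = 2.01e-05), a 2.86-fold rise, and the HDT mice differed from each other more than the Vehicle mice did. Its partner chain gene Col1a2 was at 429 and 494 CPM after HDT and at 205 and 211 CPM in Vehicle, a log2 fold change of 1.15 (SE 0.079, adjusted p = 3.12e-05). Col3a1, whose homotrimer forms the fine fibres of soft organs, was at 629 and 681 CPM after HDT and at 367 and 337 CPM in Vehicle, a log2 fold change of 0.90 (SE 0.075, adjusted p = 7.81e-05). For each of these 3 genes the groups were well apart.

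The type V chains, which are built into type I fibrils and help set their width, rose as well. Col5a1 was at 105 and 116 CPM in the HDT libraries, against 39.5 and 38.8 CPM in the Vehicle libraries, and its log2 fold change was 1.499 (SE 0.069, adjusted p = 5.40e-06). Col5a2 was at 91.8 CPM in both HDT libraries and at 34.5 and 37.0 CPM in Vehicle, a log2 fold change of 1.36 (SE 0.065, adjusted p = 6.13e-06). The remaining chain gene, Col5a3, moved less, with 12.9 and 12.1 CPM after HDT and 8.89 and 8.62 CPM in Vehicle (log2 fold change 0.51, SE 0.096, adjusted p = 0.00418). Col27a1, a fibrillar chain best known from cartilage, was at 9.90 and 9.41 CPM after HDT and at 7.07 and 8.10 CPM in Vehicle. Its log2 fold change of 0.35 (SE 0.113, adjusted p = 0.0422) is the smallest among the called rises. The call was lost without Vehicle replicate 1 (0.25, adjusted p = 0.242), without HDT replicate 1 (0.32, adjusted p = 0.140) and without HDT replicate 2 (0.40, adjusted p = 0.0745).

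The fibrillar genes without a call were low. Col24a1 was at 1.57 and 1.47 CPM after HDT and at 0.94 and 1.19 CPM in Vehicle (log2 fold change 0.52, adjusted p = 0.113), and it was called higher at the deposited scaling (1.04, adjusted p = 0.00295). The type XI chain genes, which act mainly in cartilage, had 41 and 35 reads after HDT and 41 and 28 reads in Vehicle for Col11a1, and 21 and 22 reads after HDT and 18 and 9 reads in Vehicle for Col11a2. The log2 fold change of Col11a1 was -0.38, but 0.14 at the deposited scaling, and Col11a2 had 0.19, which was -0.27 without Vehicle replicate 2. Neither was called in any of these settings.

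**Figure D2:**
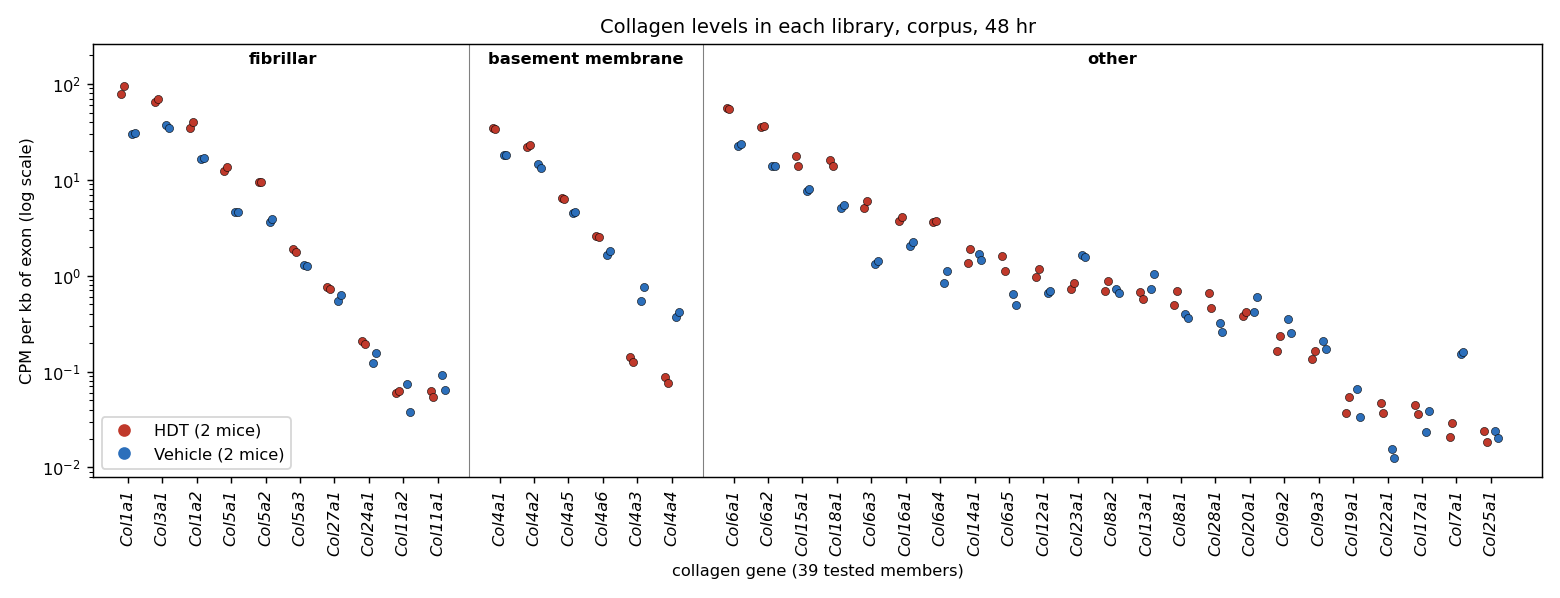
Level of each of the 39 tested collagen genes in every library, as CPM per kb of annotated exon on a log scale, by class and ordered by the HDT mean. Each point is 1 mouse, HDT at the left and Vehicle at the right of each gene. The highest genes are Col1a1, Col3a1, Col6a1, Col1a2, Col6a2 and Col4a1, and for each of these both HDT points lie above both Vehicle points.

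Per kb of exon, the order at the top differed between the groups. In HDT libraries Col1a1 led with 86.8 ± 11.7 CPM per kb, ahead of Col3a1 with 66.8 ± 3.74 and Col6a1 with 55.2 ± 0.546 CPM per kb (SD, n = 2). In Vehicle libraries Col3a1 led with 35.8 ± 2.18 CPM per kb, followed by Col1a1 with 30.2 ± 0.324 and Col6a1 with 22.9 ± 0.764 CPM per kb. The per-kb ratio of Col3a1 to Col1a1 within a library, which no scaling between libraries can change, was 0.817 and 0.730 after HDT and 1.25 and 1.13 in Vehicle. The ratio of Col1a1 to Col1a2 was 2.27 and 2.39 after HDT and 1.82 and 1.79 in Vehicle. In both ratios the groups did not overlap, while the ratio of Col5a1 to Col1a1 was 0.158 and 0.144 after HDT and 0.155 and 0.150 in Vehicle, with overlapping groups. Groups without overlap were common: for levels of single genes, HDT was wholly higher in 35.3% and wholly lower in 35.5% of all genes tested. Separation alone therefore says little, and the ratios are given as a description. The length is that of all annotated exons of a gene, 12426 bases for Col1a2 and 6563 for Col1a1, so a gene with many little-used exons is set too low against others, equally in every library.

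The 6 type IV genes split by pair. They lie in 3 pairs that start next to each other and are read in opposite directions: Col4a1 with Col4a2, Col4a3 with Col4a4 and Col4a5 with Col4a6. The first pair encodes the chains found in nearly all basement membranes, and the others encode chains of more restricted membranes, best known from the kidney. The windows around these start sites are shown because the genes of each pair moved together. They are from RefSeq on GRCm38.p6, 250 bases before to 50 bases after the start, 5′ to 3′ on the strand of the gene. Capitals mark CCAAT or its reverse complement ATTGG and the GC box GGGCGG or its reverse complement CCGCCC, searched on both strands. The windows are chr8:11312777-11313076 on the minus strand for Col4a1, chr8:11312555-11312854 on the plus strand for Col4a2, chr1:82586800-82587099 on the minus strand for Col4a4, chrX:141475169-141475468 on the plus strand for Col4a5 and chrX:141474027-141474326 on the minus strand for Col4a6.
Col4a1: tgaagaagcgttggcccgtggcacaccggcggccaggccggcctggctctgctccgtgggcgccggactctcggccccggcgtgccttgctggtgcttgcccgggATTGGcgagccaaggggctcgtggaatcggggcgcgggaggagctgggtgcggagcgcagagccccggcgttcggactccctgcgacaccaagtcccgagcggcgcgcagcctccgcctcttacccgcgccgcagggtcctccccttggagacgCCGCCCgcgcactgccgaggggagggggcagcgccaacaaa
Col4a2: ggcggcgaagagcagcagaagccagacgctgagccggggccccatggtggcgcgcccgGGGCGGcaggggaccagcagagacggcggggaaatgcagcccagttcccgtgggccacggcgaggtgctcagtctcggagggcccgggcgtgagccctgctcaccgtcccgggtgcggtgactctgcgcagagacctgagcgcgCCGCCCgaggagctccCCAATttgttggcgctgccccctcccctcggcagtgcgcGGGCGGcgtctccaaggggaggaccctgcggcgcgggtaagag
Col4a4: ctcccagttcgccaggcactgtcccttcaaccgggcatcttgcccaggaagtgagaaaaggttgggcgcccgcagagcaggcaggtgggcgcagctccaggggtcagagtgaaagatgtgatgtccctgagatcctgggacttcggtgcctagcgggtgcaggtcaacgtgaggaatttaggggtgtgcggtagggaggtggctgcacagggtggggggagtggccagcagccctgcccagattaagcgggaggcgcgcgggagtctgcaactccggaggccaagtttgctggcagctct
Col4a5: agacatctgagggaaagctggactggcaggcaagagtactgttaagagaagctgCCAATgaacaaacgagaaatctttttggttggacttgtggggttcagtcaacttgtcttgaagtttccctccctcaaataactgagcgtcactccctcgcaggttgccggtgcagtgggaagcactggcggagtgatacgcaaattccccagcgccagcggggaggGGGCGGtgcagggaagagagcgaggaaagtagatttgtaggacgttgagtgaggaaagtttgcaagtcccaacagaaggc
Col4a6: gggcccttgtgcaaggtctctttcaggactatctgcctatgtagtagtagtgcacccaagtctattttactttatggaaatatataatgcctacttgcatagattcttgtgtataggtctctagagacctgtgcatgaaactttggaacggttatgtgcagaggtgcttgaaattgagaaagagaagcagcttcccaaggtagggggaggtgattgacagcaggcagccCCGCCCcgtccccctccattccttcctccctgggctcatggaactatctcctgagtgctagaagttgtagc
The Col4a1 and Col4a2 windows share 78 bases, read from opposite strands, and their RefSeq starts lie 21 bases apart. In GENCODE M21 71 bases separate the Col4a3 and Col4a4 genes, and the Col4a3 start falls at base 179 of the Col4a4 window as printed. Col4a5 and Col4a6 are separated by 1308 bases. CCAAT was found in the Col4a1, Col4a2 and Col4a5 windows and the GC box in those of Col4a1, Col4a2, Col4a5 and Col4a6, while the Col4a4 window held neither. Col4a3 had no window. The GC box of Col4a1 lies in the shared bases, so the Col4a2 window holds it too. Among all called collagens with a window, CCAAT was in 8 of 19 that rose and 1 of 3 that fell. The GC box was in 14 of 19 that rose and in 2 of 3 that fell, Col7a1 and Col23a1. Of all 32851 promoter windows, 37.4% held CCAAT and 35.7% held the GC box, on either strand. These shares count windows, of tested and untested genes alike. The collagens were counted by gene, 35 genes with 38 windows, and a match in any window of a gene sufficed, so the 2 measures differ. A match is a run of letters and not a site known to be bound.

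The ubiquitous chains rose. Col4a1 was at 256 and 251 CPM in the HDT libraries and at 134 and 135 CPM in the Vehicle libraries, a log2 fold change of 0.92 (SE 0.058, adjusted p = 2.09e-05). Col4a2 was at 146 and 153 CPM after HDT and at 95.8 and 88.7 CPM in Vehicle, a log2 fold change of 0.70 (SE 0.066, adjusted p = 0.000145). The second pair to rise moved by less. Col4a5 was at 43.3 and 42.6 CPM after HDT, against 30.2 and 31.0 CPM in Vehicle (log2 fold change 0.49, SE 0.064, adjusted p = 0.000708). Col4a6 was at 20.9 and 19.9 CPM after HDT, against 12.98 and 14.3 CPM in Vehicle (log2 fold change 0.58, SE 0.086, adjusted p = 0.00129). Both HDT libraries were above both Vehicle libraries for all 4 genes.

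The remaining pair fell. Col4a3 was at 1.40 and 1.25 CPM in the HDT libraries, from 72 and 63 reads, and at 5.43 and 7.52 CPM in the Vehicle libraries, from 191 and 259 reads. Its log2 fold change was -2.25 (SE 0.197, adjusted p = 9.95e-05), so it was 4.77-fold lower after HDT. Col4a4 was at 0.93 and 0.81 CPM after HDT and at 3.95 and 4.41 CPM in Vehicle, a log2 fold change of -2.23 (SE 0.190, adjusted p = 8.73e-05), or 4.71-fold lower. The groups were far apart for both genes, and the fold changes of the 2 genes differed by less than either SE. The ratio of Col4a3 to Col4a4, per kb, was 1.60 and 1.64 after HDT and 1.46 and 1.81 in Vehicle, with overlapping groups. The ratio of this pair to Col4a1 and Col4a2 together was 0.0040 and 0.0036 after HDT and 0.028 and 0.037 in Vehicle. An antisense transcript gene, C430014B12Rik, covers 5.65% of the exon bases of Col4a3 and had 228 and 192 reads after HDT and 251 and 263 reads in Vehicle. Whether reads were counted by strand is not given in the sources used here, so reads of the shared bases cannot be assigned.

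**Figure D3:**
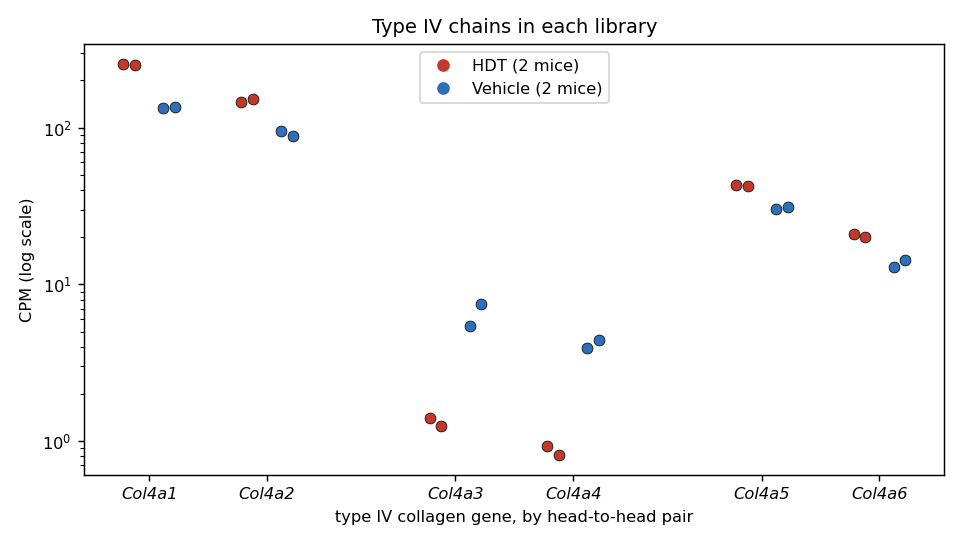
CPM of the 6 type IV collagen genes in each library on a log scale, ordered by head-to-head pair, HDT left and Vehicle right of each gene. Each point is 1 mouse. HDT points lie above Vehicle points for Col4a1, Col4a2, Col4a5 and Col4a6 and below them for Col4a3 and Col4a4.

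Type VI collagen, which forms beaded filaments between cells and fibrils, rose in every tested chain. Col6a1 was at 244 and 240 CPM in the HDT libraries and at 98.0 and 103 CPM in the Vehicle libraries (log2 fold change 1.27, SE 0.060, adjusted p = 6.12e-06). Col6a2 was at 297 and 304 CPM after HDT and at 116 CPM in both Vehicle libraries (1.37, SE 0.058, adjusted p = 3.70e-06). These 2 chains assemble with 1 more, and the genes lie on the same strand with 85.2 kb between them.

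Col6a3, the gene of the usual partner chain and of the fragment endotrophin, was at 60.7 and 71.0 CPM after HDT and at 15.99 and 17.1 CPM in Vehicle. Its log2 fold change of 1.99 (SE 0.089, adjusted p = 4.98e-06), a 3.97-fold rise, was the highest value of all 39 tested collagens. Per kb, Col6a3 stood at 0.091 and 0.108 of the Col6a1 level after HDT and at 0.060 and 0.061 of it in Vehicle. The gene of an alternative partner chain, Col6a4, was at 31.0 and 31.4 CPM after HDT and at 7.16 and 9.55 CPM in Vehicle (log2 fold change 1.91, SE 0.134, adjusted p = 6.29e-05). The neighbouring Col6a5 was at 15.2 and 10.6 CPM after HDT and at 6.08 and 4.70 CPM in Vehicle (log2 fold change 1.24, SE 0.203, adjusted p = 0.00408). The HDT mice were far apart for Col6a5, yet both exceeded both Vehicle mice. Col6a6, the last gene of this row on chromosome 9, had 5 and 4 reads after HDT and 10 and 8 reads in Vehicle and was not tested.

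The multiplexins, collagens of the basement membrane zone whose ends can be released as endostatin-like fragments, both rose. Col18a1 was at 113 and 98.5 CPM in the HDT libraries, against 35.2 and 38.3 CPM in the Vehicle libraries, a log2 fold change of 1.52 (SE 0.082, adjusted p = 1.08e-05). Col15a1 was at 111 and 88.2 CPM after HDT, against 48.3 and 50.7 CPM in Vehicle (1.00, SE 0.108, adjusted p = 0.000568). Within a library the per-kb ratio of Col18a1 to Col15a1 was 0.918 and 1.01 after HDT and 0.659 and 0.684 in Vehicle. HDT replicate 1 was the higher of the HDT mice for both genes.

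The fibril-associated collagens were mixed, with 3 rises among 8 tested genes, 0 falls and a median of -0.02. Col16a1 was at 24.9 and 27.4 CPM after HDT and at 13.7 and 15.3 CPM in Vehicle (0.85, SE 0.090, adjusted p = 0.000255). Col12a1, whose chain links neighbouring fibrils, was at 14.7 and 17.9 CPM after HDT and at 9.94 and 10.6 CPM in Vehicle (0.66, SE 0.114, adjusted p = 0.00276). Its relative Col14a1 was at 9.43 and 13.3 CPM after HDT and at 11.7 and 10.3 CPM in Vehicle (0.03, adjusted p = 0.920), with overlapping groups, and it was called higher at the deposited scaling (0.56, adjusted p = 0.0174). Col22a1 had 22 and 17 reads after HDT and 5 and 4 reads in Vehicle, a log2 fold change of 1.42 (SE 0.435, adjusted p = 0.0347). That call was lost when any 1 of the 4 libraries was left out, with adjusted p of 0.251 and 0.139 without HDT replicates 1 and 2 and 0.0604 and 0.101 without Vehicle replicates 1 and 2. Without a call were Col9a2, Col9a3, Col19a1 and Col20a1, with log2 fold changes between -0.58 and -0.07, and their reads per library ran from 8 to 108.

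Of the 4 membrane-spanning collagens 1 fell and none was called higher, also at the deposited scaling. Col23a1 was at 4.16 and 4.81 CPM in the HDT libraries and at 9.43 and 8.88 CPM in the Vehicle libraries. Its log2 fold change was -1.03 (SE 0.126, adjusted p = 0.00052), 2.04-fold lower, and it was -0.50 and still called at the deposited scaling (adjusted p = 0.00724). Col13a1, a collagen of cell-matrix junctions, was at 3.07 and 2.60 CPM after HDT and at 3.32 and 4.82 CPM in Vehicle (-0.50, adjusted p = 0.0946). It was called lower without Vehicle replicate 1 (-0.77, adjusted p = 0.0143) and stood at 0.03 at the deposited scaling. Col17a1, the hemidesmosome collagen of squamous epithelium, had 14 and 11 reads after HDT and 5 and 8 reads in Vehicle, and Col25a1 had 16 and 12 reads after HDT and 11 and 9 in Vehicle. Neither was called (adjusted p = 0.559 for Col17a1 and 0.915 for Col25a1).

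Col7a1, whose product forms the anchoring fibrils below the basement membrane of squamous epithelium, was the collagen with the lowest log2 fold change. It had 11 and 15 reads in the HDT libraries and 55 and 56 reads in the Vehicle libraries, or 0.21 and 0.30 CPM after HDT and 1.56 and 1.63 CPM in Vehicle. The log2 fold change was -2.56 (SE 0.296, adjusted p = 0.000387), 5.91-fold lower after HDT, and the groups were far apart. Among short-chain network collagens, Col8a1 was at 3.87 and 5.43 CPM after HDT and at 3.12 and 2.85 CPM in Vehicle (0.62, SE 0.189, adjusted p = 0.0346). Its call was lost without HDT replicate 2 (0.39, adjusted p = 0.168) and without Vehicle replicate 2 (0.55, adjusted p = 0.0878). Col8a2 was at 3.09 and 3.92 CPM after HDT and at 3.27 and 2.99 CPM in Vehicle, with overlapping groups and no call (adjusted p = 0.515), though it was called higher at the deposited scaling (0.68, adjusted p = 0.00617). Col28a1, a collagen described around peripheral nerve glia, was at 3.27 and 2.28 CPM after HDT and at 1.59 and 1.28 CPM in Vehicle (0.93, SE 0.233, adjusted p = 0.0159). Without HDT replicate 1 this gene was not called (0.67, adjusted p = 0.0992).

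Beside Col6a6, 4 genes had too few reads for the test. Col26a1 had 20 and 10 reads in the HDT libraries and 5 in each Vehicle library. Col10a1, the collagen of hypertrophic cartilage, had 10 and 9 reads after HDT and 4 and 7 in Vehicle. The cartilage genes Col2a1 and Col9a1 were almost absent, with 1 read in each HDT library and 2 and 0 reads in Vehicle for Col2a1, and 0 reads in both HDT libraries and 1 and 0 in Vehicle for Col9a1.

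Summed over all 44 genes, collagens took 0.391% and 0.405% of the reads in the HDT libraries and 0.130% and 0.125% in the Vehicle libraries. After TMM scaling the sum was 3318 ± 155 CPM in HDT and 1531 ± 5.61 CPM in Vehicle (SD, n = 2), a ratio of 2.17. The ratio was 2.25 for fibrillar genes, 1.67 for type IV genes and 2.36 for other collagens, within which type VI reached 2.64. Among collagen reads the type IV share was 14.6% and 13.7% after HDT and 18.4% in both Vehicle libraries, and the type VI share was 20.2% and 19.2% after HDT and 15.8% and 16.4% in Vehicle. The fibrillar share was 56.0% and 59.3% after HDT and 56.2% and 55.2% in Vehicle, so the groups overlapped there. Shares of collagen reads do not depend on the scaling between libraries. With 2 libraries per group an exact permutation test cannot give a p below 0.33, and the shares are given as a description.

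**Figure D4:**
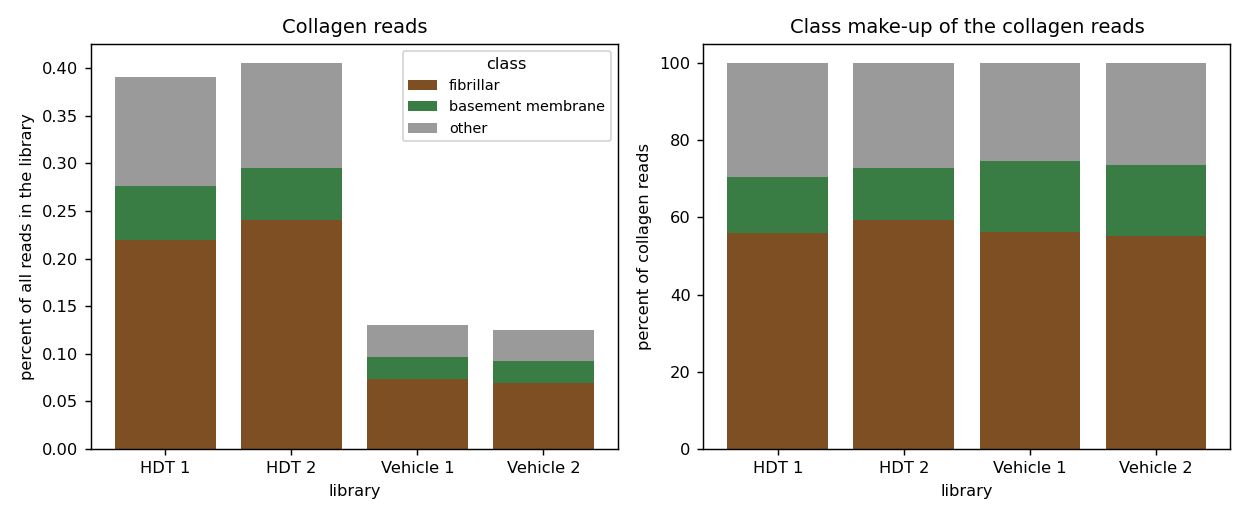
Left, collagen reads as a percentage of all reads in each library, stacked by class. Right, the same classes as a percentage of collagen reads, where the basement membrane (type IV) part is 14.6% and 13.7% in the HDT libraries and 18.4% in the Vehicle libraries.

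Genes that modify, fold, process, bind and break down collagen did not all move with it. Their calls after TMM scaling can be read against the whole set of 18285 tested genes, where 18.4% rose and 19.3% fell. The median log2 fold change of that whole set was -0.001. Counts on the deposited scale are given for each list below. Of all 18285 tested genes, 11483 were called higher and 998 lower on that scale, with a median of 0.526. Of 15 genes of proline and lysine hydroxylation, 4 rose and 5 fell, and the median was -0.07. On the deposited scale this median was 0.46, and 7 genes were higher and 2 lower. P4ha2 and P4ha1, catalytic subunits of the prolyl hydroxylase that stabilises the collagen helix, were lower, P4ha2 at 13.8 and 12.8 CPM after HDT and at 35.9 and 36.8 CPM in Vehicle (-1.45, SE 0.077) and P4ha1 at 12.7 and 15.04 CPM after HDT and at 25.99 and 25.3 CPM in Vehicle (-0.89, SE 0.098). P3h3, a lysine hydroxylation partner of the prolyl 3-hydroxylase family, was higher, at 10.5 and 10.2 CPM after HDT and at 6.28 and 6.04 CPM in Vehicle (0.74, SE 0.105).

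Of 12 genes of folding and secretion, 4 rose and 5 fell, and the median was -0.01, but 0.52 on the deposited scale with 9 genes up and 2 down. Sparc, a secreted collagen-binding protein, rose to 407 and 431 CPM after HDT, against 266 and 273 CPM in Vehicle (0.64, SE 0.064). Tmem38b, an ion channel of the endoplasmic reticulum, was at 14.7 and 15.04 CPM after HDT and at 24.6 and 28.9 CPM in Vehicle (-0.85, SE 0.094), and Creb3l2, a transcription factor of secretory cells, was at 29.8 and 26.9 CPM after HDT and at 48.7 and 48.6 CPM in Vehicle (-0.78, SE 0.073).

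Procollagen processing and cross-linking genes were mostly higher, with 10 of 14 tested genes up, 0 down and a median of 0.62, or 12 up and 0 down on the deposited scale. Pxdn, the peroxidasin that cross-links type IV collagen, was at 31.3 and 29.4 CPM after HDT and at 14.5 and 13.8 CPM in Vehicle (1.10, SE 0.077). Loxl2, a lysyl oxidase, was at 29.2 and 34.2 CPM after HDT and at 19.2 and 18.2 CPM in Vehicle (0.76, SE 0.092). Pcolce, an enhancer of procollagen cleavage, was at 45.0 and 51.9 CPM after HDT and at 28.7 and 28.8 CPM in Vehicle (0.75, SE 0.081).

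Of 15 fibril-binding proteoglycans and glycoproteins, 5 rose and 2 fell, and the median was 0.04. On the deposited scale it was 0.58, against 0.526 for all tested genes, with 13 genes up and 0 down. Bgn (biglycan) was at 381 and 353 CPM after HDT and at 172 and 179 CPM in Vehicle (1.06, SE 0.066), and Fn1 (fibronectin) was at 99.7 and 127 CPM after HDT and at 72.0 and 77.6 CPM in Vehicle (0.59, SE 0.117). Aspn (asporin) fell to 15.1 and 15.7 CPM after HDT, against 26.2 and 24.5 CPM in Vehicle (-0.72, SE 0.078), and was not called at the deposited scaling (-0.19, adjusted p = 0.0817).

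Among 11 tested receptors and uptake genes, 4 rose and 1 fell, with a median of 0.23. On the deposited scale 10 were up and 0 down, and the median was 0.76. Mrc2, an endocytic collagen receptor, was at 9.64 and 10.2 CPM after HDT and at 5.71 and 5.84 CPM in Vehicle (0.78, SE 0.107). Ddr2, a receptor kinase for fibrillar collagen, was at 38.8 and 40.0 CPM after HDT and at 51.9 and 46.6 CPM in Vehicle, so it was lower (log2 fold change -0.32, SE 0.073), whereas on the deposited scale it was called higher (0.21). Itga1, an integrin subunit that binds type IV collagen, was at 24.97 and 28.3 CPM after HDT and at 21.9 and 21.1 CPM in Vehicle (0.31, SE 0.084), and was not called without HDT replicate 2 (adjusted p = 0.0926) or without Vehicle replicate 2 (adjusted p = 0.0743).

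Of 10 tested proteases, 4 rose and 0 fell, with a median of 0.69, and on the deposited scale 8 were up and 0 down. Mmp12, the macrophage elastase, was at 26.97 and 43.3 CPM after HDT and at 3.01 and 3.83 CPM in Vehicle (3.32, SE 0.258), and was not called without Vehicle replicate 1 (adjusted p = 0.075) or Vehicle replicate 2 (adjusted p = 0.0722). The membrane collagenase gene Mmp14 was at 29.5 and 31.9 CPM after HDT and at 18.1 and 16.8 CPM in Vehicle (0.81, SE 0.080), and Mmp2 was at 60.8 and 60.7 CPM after HDT and at 38.8 and 43.96 CPM in Vehicle (0.56, SE 0.075).

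The non-collagen partners of type IV collagen in the basement membrane showed 7 rises and 3 falls among 14 genes, with a median of 0.53, and on the deposited scale 12 were up and 0 down. The laminin chain genes Lama2, at 13.6 and 13.9 CPM after HDT and 7.78 and 7.90 CPM in Vehicle (0.81, SE 0.093), and Lama5, at 23.4 and 21.7 CPM after HDT and 12.7 and 12.98 CPM in Vehicle (0.81, SE 0.082), were higher. Lama3, an epithelial laminin chain, was at 7.60 and 10.6 CPM after HDT and at 16.4 and 15.2 CPM in Vehicle (-0.81, SE 0.156) and was not called at the deposited scaling (-0.28, adjusted p = 0.125).

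**Figure D5:**
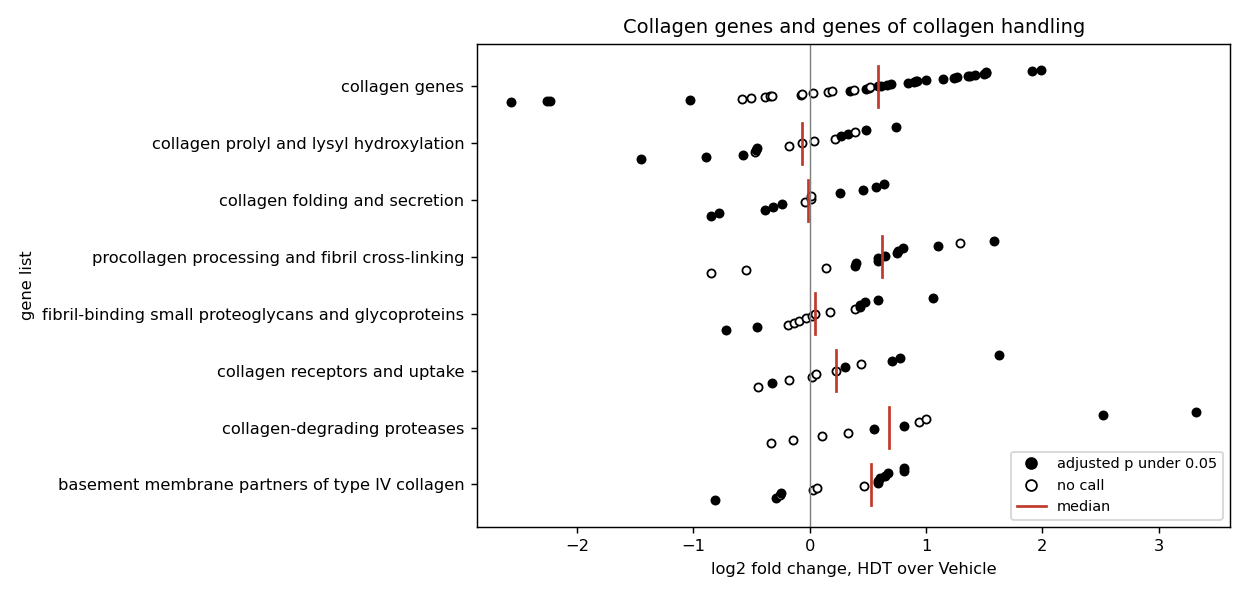
Log2 fold change of HDT over Vehicle for every tested gene of 8 lists, the collagen genes at the top. Filled points are called, open points are not, and the red bar is the list's median, 0.58 for collagen genes and -0.07 and -0.01 for the hydroxylation and the folding list.

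Markers of some cell types in the tissue differed between the groups and others did not. After TMM scaling 18.4% of all 18285 tested genes were called higher and 19.3% lower. For the counts on the deposited scale, 11483 of all 18285 tested genes were called higher there and 998 lower. The summed level of 10 fibroblast markers was 473 and 489 CPM in the HDT libraries and 422 and 419 CPM in the Vehicle libraries. Of the 10, 4 were higher (Pdgfra, Pdgfrb, Lum and Vim) and 1 lower (Dpt, -0.45). Thy1, Dcn, Fap, Pi16 and S100a4 had no call, and no fibroblast marker was at 0 reads. The 10 smooth muscle markers, at 1894 and 2770 CPM after HDT and 3141 and 2227 CPM in Vehicle, and the 10 endothelial markers, at 226 and 205 CPM after HDT and 220 and 254 CPM in Vehicle, overlapped between groups in their sums. No smooth muscle marker was called, and 5 endothelial markers were called lower and 0 higher. On the deposited scale 0 were lower and 5 higher, of which 1, Plvap, was among those called lower after TMM scaling and 4 had had no call. Pericyte markers summed to 183 and 193 CPM after HDT and 252 and 214 CPM in Vehicle, with 1 of 5 higher and 2 lower. Glial markers summed to 207 and 222 CPM after HDT and 211 and 203 CPM in Vehicle, with 1 of 8 higher and 2 lower. Erbb3 alone made up 171 and 185 CPM of the glial sums after HDT and 159 CPM in both Vehicle libraries. The glial sums thus mostly follow Erbb3. On the deposited scale 3 pericyte and 3 glial markers were up and 0 of either down. Macrophage markers summed to 426 and 353 CPM after HDT and 192 and 205 CPM in Vehicle, with 8 of 10 higher. Lyz2 alone made up 209 and 146 CPM of these sums after HDT and 60.9 and 69.0 CPM in Vehicle. Adgre1 and Mrc1 had no call. Of the 10 markers listed for parietal cells, the acid-secreting cells that define the corpus, 7 were lower and 1 higher. Their sums were 5981 and 5971 CPM after HDT and 17468 and 19113 CPM in Vehicle. Gif stands in this list and in the chief cell list, so its level and its fall count in both. Its level was 571 and 394 CPM after HDT and 1851 and 2468 CPM in Vehicle. Of the chief cell markers 4 of 7 were lower, with sums of 45452 and 32113 CPM after HDT and 155629 and 188931 CPM in Vehicle, and of the surface mucous markers 6 of 6 were lower, with sums of 65737 and 80615 CPM after HDT and 123327 and 120348 CPM in Vehicle. At the deposited scaling 5 parietal, 3 chief and 2 surface mucous markers were lower, and 10 macrophage and 6 fibroblast markers were higher. The chief cell marker Lipf had no read in any library.

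Markers of tissues that adjoin the corpus were also read. Mesothelial markers, of which 4 of 6 were lower, summed to 5.31 and 6.56 CPM after HDT and 15.3 and 10.7 CPM in Vehicle without the widely expressed keratin Krt19, a sum chosen after its values were seen; with Krt19 it was 1887 and 2191 CPM after HDT and 2046 and 1951 CPM in Vehicle. Squamous forestomach markers summed to 2.47 and 3.03 CPM after HDT and 2.50 and 2.09 CPM in Vehicle, and their regulator Trp63 had 1 read or fewer in each library. Adipocyte markers, with 1 of 5 lower, summed to 56.5 and 64.2 CPM after HDT and 91.6 and 76.5 CPM in Vehicle. The lower gene, Fabp4, made up 36.7 and 47.4 CPM of these sums after HDT and 59.0 and 53.1 CPM in Vehicle. For Adipoq, Plin1 and Cfd the groups overlapped. Pancreatic markers summed to 12.5 CPM in both HDT libraries and to 56.2 and 189 CPM in Vehicle, with 1 of 4 lower, so Vehicle replicate 2 stood apart there. The part of these cell types in the collagen values was not tested.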

How the data were processed

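RNA-seq was made from stomach corpus of 4 mice, 2 HDT and 2 Vehicle. The tools named, per the submitters' processing notes, are edgeR, STAR 2.7.1a, Subread 2.0.0 and featureCounts, and the build is GRCm38/mm10. What each did, which annotation and strand setting were used and how values were normalized is not given in the sources used here. Values deposited by the authors are signal values, gene counts divided by a factor per library, and 100% of them came out as whole reads within 0.01 of a read, 1 read being worth 1.11 to 1.14 units. Since these are not raw counts, the main test was limma 3.58.1 (trend, robust) on log2(value + 1), the value being the deposited one divided by its TMM factor from edgeR 4.0.16 and its library total relative to the mean, so that the pseudocount of 1 equals 0.716 to 1.07 reads, over the 18285 genes that passed edgeR's filter of low values, with Benjamini-Hochberg adjustment and a threshold of 0.05. A fold change on this scale understates the change of low genes. TMM factors were 1.219 and 1.183 for HDT and 0.848 and 0.818 for Vehicle. edgeR's quasi-likelihood test and DESeq2 1.42.0 on the recovered reads, other scalings, pseudocounts and filters, a replicate block and leaving out each library were alternatives. The fits were tested on simulated data in which few genes changed, as many up as down. That simulation cannot judge the scaling between these libraries. Gene positions and exon lengths are from GENCODE M21. RefSeq promoter windows were matched by symbol for 35 of the 44 genes. The named genes of a pathway list are the 3 called members with the largest absolute log2 fold change and at least 5 CPM in the higher group. The collagen genes, their classes and the lists were chosen with earlier results of these data known.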

Additional observations from a re-analysis of the deposited data

How the results depend on the processing

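Of the 23 rises, 19, and of the 4 falls, 4 kept direction and call under all the alternatives run. Col8a1, Col22a1, Col27a1 and Col28a1 lost theirs in at least 1. The deposited scaling, which moved the median of all genes up, was hardly a test of the rises. DESeq2 did not call Col8a1 (adjusted p = 0.0529) or Col27a1 (adjusted p = 0.115). edgeR on recovered reads called 23 collagens higher and 4 lower (3358 and 3511 of all genes), and DESeq2 20 and 4 (2626 and 2896 of all genes). At the deposited scaling the median log2 fold change of fibrillar collagens was 1.237, the median log2 fold change of basement membrane collagens 1.067 and the median log2 fold change of other collagens 1.146, and the signs turned for Col9a3 (0.189), Col11a1 (0.14), Col13a1 (0.029), Col19a1 (0.424), Col20a1 (0.186), Col25a1 (0.429) and Ddr2 (0.212). The fibrillar median was 0.741 with upper-quartile scaling, 0.529 with no filter on low values and 1.018 with a filter of 1 CPM in 2 libraries; the median of other collagens was 0.394 with no filter and 0.844 with the 1 CPM filter. With types VII, XV and XVIII moved to the basement membrane class, 1 of the other collagens was called lower and their median was 0.499. Leaving out 1 library gave fibrillar medians from 0.716 to 0.801, type IV medians from 0.487 to 0.575 and other medians from 0.503 to 0.662. The sign turned within these fits for Col11a2 (-0.271 to 0.647), Col14a1 (-0.205 to 0.279), Col19a1 (-0.534 to 0.378) and Col25a1 (-0.24 to 0.129), none of them called. The cause of these shifts was not tested.

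Libraries with the same replicate number share only a number: their deviations correlated at -0.142. With the replicate block 20 collagens were called higher and 4 lower, and over all genes 2359 higher and 2623 lower. Crossing the numbers was an alternative chosen after seeing the data. It called 23 collagens higher and 5 lower, and over all genes 4202 higher and 4323 lower. The tested genes Col11a2, Col17a1, Col19a1, Col22a1 and Col25a1 had 22 reads or fewer in every library, and their SE ran from 0.402 to 0.468.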
